A study of Mus musculus with 138 samples.

Results

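The genes described here encode the enzymes that add methyl groups to histones and other proteins and the enzymes that remove them. They were taken by name from the count tables (Kdm, Setd, Setdb, Ehmt, Suv39h, Suv420h, Ezh, Mll, Whsc1, Prmt and Smyd names, with Eed, Suz12, Nsd1, Dot1l and Carm1), which gave 59 members of the 25900 genes counted. The pattern matched 65 names, of which the 6 Mllt names were left out because they do not encode these enzymes. Several members stand in the tables under older names: Mll1 is Kmt2a, Mll2 is Kmt2d, Mll3 is Kmt2c, Mll5 is Kmt2e, Whsc1 is Nsd2, Whsc1l1 is Nsd3, Setd8 is Kmt5a, Suv420h1 is Kmt5b, Suv420h2 is Kmt5c and Prmt10 is Prmt9. Eed and Suz12 are not enzymes themselves but subunits that the enzyme Ezh2 needs, and Mll5 is thought to lack methyltransferase activity.

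Histone methylation marks the state of a gene: methyl groups on lysine 4, 36 or 79 of histone H3 are found at active promoters, enhancers and gene bodies, and those on lysine 9 or 27 at silent chromatin. After fertilisation the embryo lives on enzymes and transcripts stored in the egg until its own genome is switched on, a step called zygotic genome activation, and at that time broad domains of H3 lysine 4 trimethylation inherited from the egg are removed by Kdm5-family demethylases. The study removed SMARCA5, the motor protein of the ISWI chromatin remodelling complexes, and read polyadenylated RNA at the 2-cell stage, when the major wave of activation takes place in the mouse.

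Embryos of separate experiments, with a count table each, were compared. In the first, embryos from mothers without maternal SMARCA5 and wild-type fathers (Smarca5 +/-, 28 libraries used, called maternal deletion) were set beside Smarca5 +/+ embryos (22 libraries, called wild type). In the second, wild-type zygotes were injected for TrimAway, a method in which an antibody together with the ubiquitin ligase TRIM21 sends its target protein to the proteasome: 31 libraries came from zygotes given an antibody to SMARCA5 and 20 from zygotes given control IgG, taken at least 24 hours after injection, and 15 from zygotes that were not injected. The submitters call the replicates technical: each number is a pool of embryos from several matings, or a separate pool of injected embryos. Deletion and wild-type libraries carry replicates 1 and 2, uninjected and IgG libraries that could be used carry replicates 1 and 3, and anti-SMARCA5 libraries carry replicates 1, 2 and 3. Mouse strain, the Cre line and the sex of the embryos are not given in the sources used here, and titles of both deletion-experiment groups name matKO females. Nothing ties libraries of a pool to separate litters, so p-values measure the spread between embryos, which may share a mother.

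Of 135 embryo libraries, 116 held at least 100000 counts and were used, with totals from 109007 to 12004992. The 6 IgG libraries of replicate 2 all fell below that total. Smarca5 transcript was 387 normalised CPM in the median wild-type library (CPM, a gene's share of its library's counts, scaled between libraries by edgeR's TMM factors; lowest 158, highest 818) and 93.8 in the median deletion library (2.9 to 329.6). The deletion library A04 stood apart: it held the highest Smarca5 level of its group and the lowest Gdf9 (an egg growth factor), 23.2 CPM against a group median of 4620.1. Its summed egg transcripts were the lowest of its group (5392 CPM) and its summed 2-cell transcripts were 4749. The wild-type libraries G05 and H05, both of replicate 2, had low Smarca5 levels (158 and 171) and high Gdf9 (647 and 287, group median 53.0), while their summed 2-cell transcripts (4459 and 2988) were not below the wild-type median. Whether these 3 wells carry the wrong label was not tested. In TrimAway embryos Smarca5 transcript does not check the treatment, which acts on the protein. Trim21 was above 3 counts in 30 of 31 anti-SMARCA5 libraries and at 0 in the library C02. It was at 0 in all 10 IgG libraries of replicate 1 and above 3 counts in 8 of 10 of replicate 3. Transcript lists also moved with the groups: the summed level of 26 egg transcripts had a median of 12317 CPM in wild type (2087 to 47119) and 32876 in deletion embryos (5392 to 61774). That of 27 2-cell transcripts was 2982 (1599 to 5942) and 602 (174 to 6035). The egg medians of wild type and deletion were 27022 and 37463 in replicate 1 and 5859 and 24150 in replicate 2. The 2-cell medians were 4011 and 519 in replicate 1 and 2463 and 704 in replicate 2. Of the 27, 20 were above 3 counts in most wild-type and 14 in most deletion libraries. The part of these lists in the results below was not tested. Markers of sperm were at a median of 0 to 2.83 CPM in every group, those of blood and fibroblasts at 0 to 21.3, and those of cumulus and granulosa cells at 59.8 to 99.1. Counts are relative to all RNA of an embryo, so less of a transcript and more of the others cannot be told apart.

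In control embryos Suz12 and Ezh2, subunits of Polycomb repressive complex 2 (PRC2), which methylates H3 lysine 27, stood highest per length of transcript. Suz12 had a median of 137 CPM per kb of exon in uninjected and 156 in wild-type embryos, and Ezh2, the catalytic subunit, 48.4 and 59. Ezh1, the other catalytic subunit, was far lower, at 9.96 and 10.1. Next in uninjected embryos came Setd2, which trimethylates H3 lysine 36, at 46.9, Mll3, which monomethylates H3 lysine 4 at enhancers, at 37.1, Setdb2 at 33.9, Prmt5, the main enzyme of symmetric arginine dimethylation, at 28.8, and Kdm5b, which removes H3 lysine 4 trimethylation, at 27.2. In wild-type embryos Kdm5b (39.9) and Eed, the PRC2 subunit that reads the mark (34.7), came next after Setd2 (44.9). At the other end, Prmt8, Smyd1, Smyd2 and Kdm5d were above 3 counts in at most 1 in 4 of all libraries used, and 11 members were above 3 counts in every library. Kdm5d lies on the Y chromosome and was above 3 counts in 4 of 22 wild-type, 1 of 28 deletion, 4 of 15 uninjected, 9 of 20 IgG and 10 of 31 anti-SMARCA5 libraries. Among members with a median of at least 50 CPM, the coefficient of variation between uninjected embryos ran from 0.165 for Kdm3a and 0.175 for Suz12 to 0.657 for Smyd5 and 0.695 for Prmt6.

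**Figure D1:**
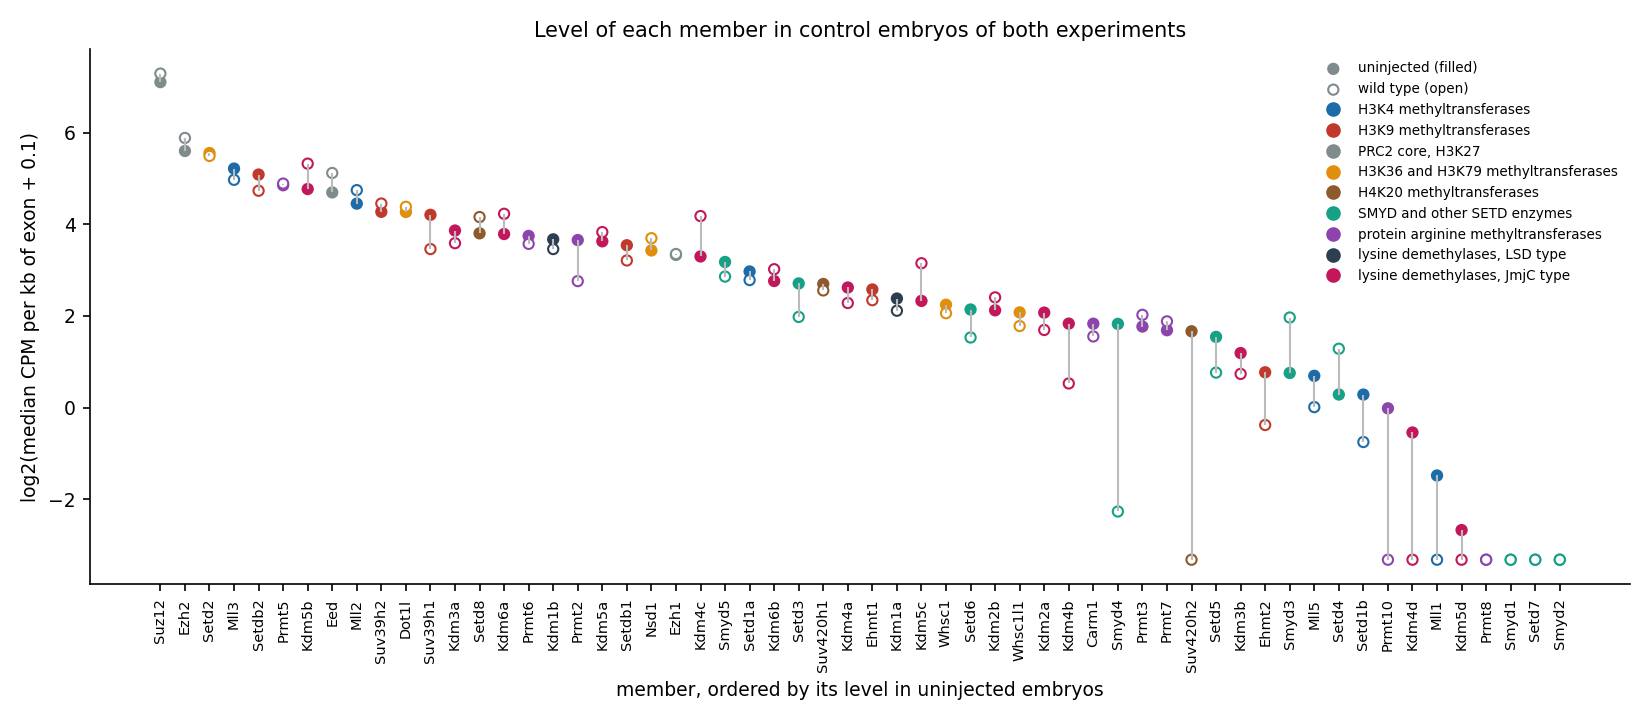
Level of the 58 members with an exon length, as log2 of the median CPM per kb of exon plus 0.1, in uninjected embryos (filled) and wild-type embryos (open), ordered by the uninjected level and coloured by role. The tables of the experiments were scaled separately, so the distance between a filled and an open point includes that; Suz12 and Ezh2 lead in both.

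Setting deletion beside wild-type embryos asks how loss of the egg's SMARCA5 changes these transcripts. The deletion embryos are also Smarca5 +/-, so loss from the egg and a missing gene copy in the embryo cannot be told apart. In deletion embryos, 9 members rose and 11 fell of the 47 that passed the filter on low counts. Kdm6b, an H3 lysine 27 demethylase, rose 4.59-fold, and Kdm1b, an H3 lysine 4 demethylase that works in the growing oocyte, 3.17-fold. Kdm5b fell 5.08-fold, Kdm4c, a demethylase of H3 lysines 9 and 36, 5.77-fold, and Setd2 3.59-fold. The 20 called members are 42.6% of those tested, against 56.6% of all 8518 genes tested (30.3% higher and 26.4% lower), so the members were called no more often than genes at large. Their median log2 fold change was 0.17, beside 0.18 over all genes. Calls are edgeR quasi-likelihood tests with Benjamini-Hochberg adjusted p under 0.05 over all genes tested.

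Scaling by total counts alone lowered the median of all genes from 0.18 to -0.04 and turned no called member. It gave 8 higher and 16 lower members, beside 2199 higher and 2623 lower of 8518 genes, and ended the call of Dot1l. Of the 20 calls, 15 held without replicate 1 and 12 without replicate 2, with 8 in both: Kdm1b, Kdm6b, Setd6, Suv39h2, Kdm4c, Kdm5b, Setd2 and Suv420h1. The fit without replicate 1 called 19 of 52 members, beside 3879 of 9730 genes. That without replicate 2 called 15 of 40, beside 2801 of 6389 genes. How many calls held among all genes was not counted. Lost without replicate 1 were Kdm4a, Prmt5, Prmt6, Setdb2 and Suv39h1, and without replicate 2 Dot1l, Kdm5a, Mll2, Setd1b, Smyd4, Suv39h1, Whsc1 and Prmt1, which was then too low to test. Without the libraries A04, G05 and H05, a choice made after seeing the data, 22 members were called, beside 5035 of 8380 genes. Of the 20 calls 19 held, Kdm4a being the exception. All 19 called members with a value in both replicates had the same direction in each, but the same libraries gave the calls. That agreement is therefore no separate support.

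**Figure D2:**
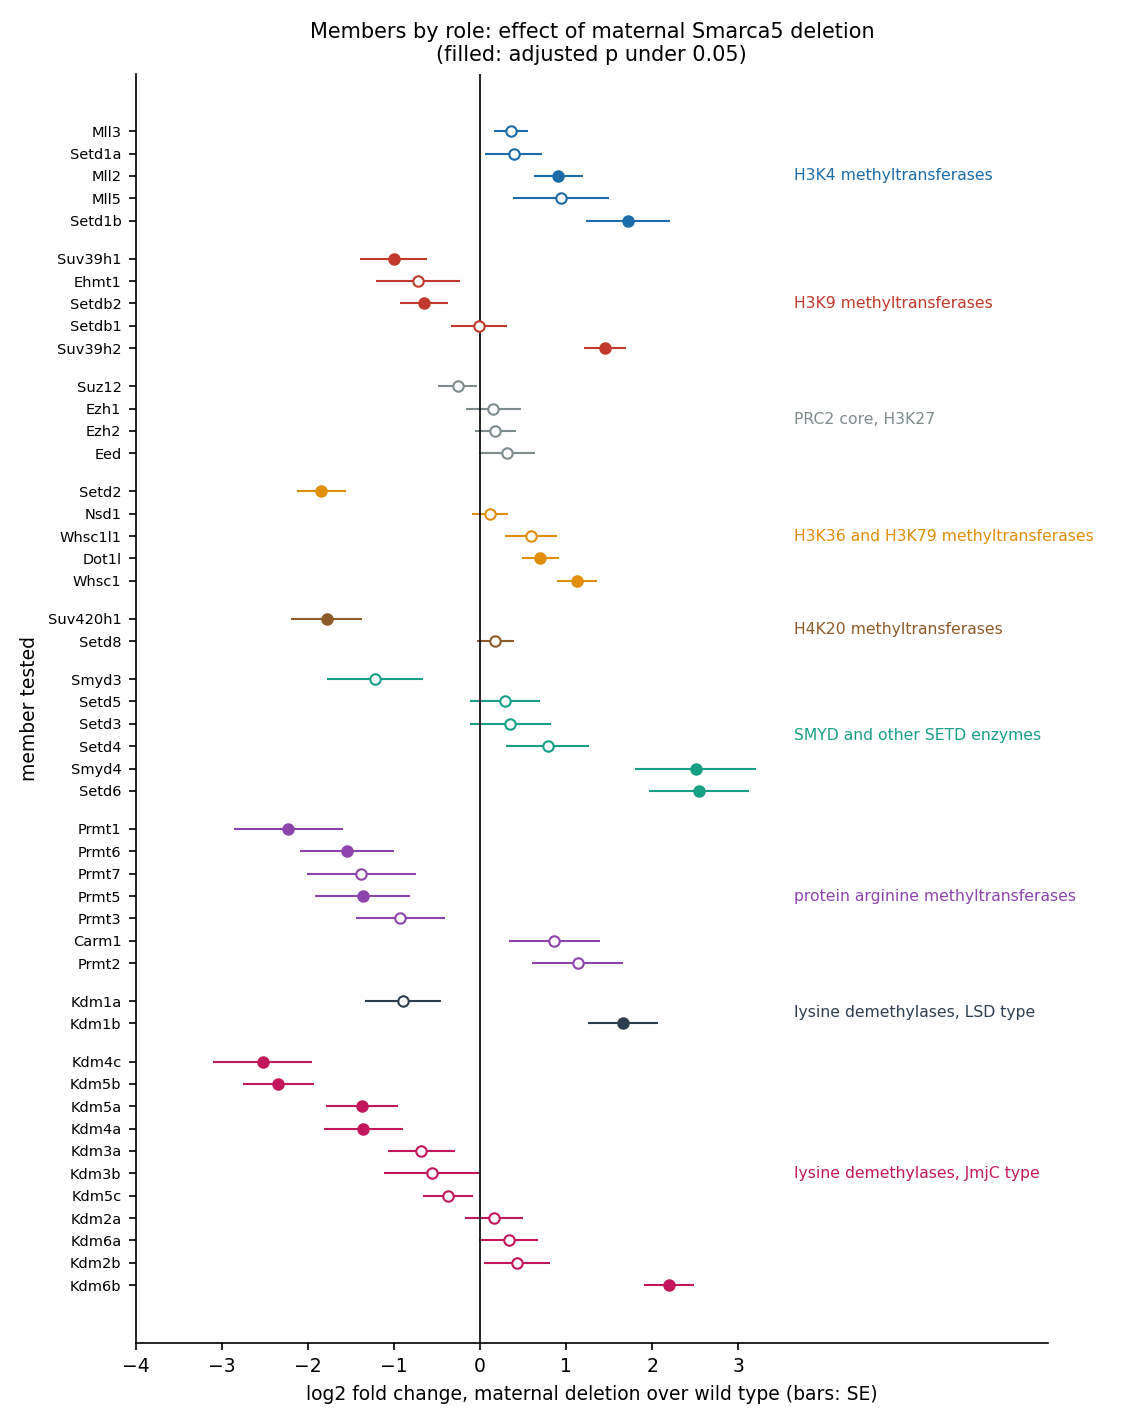
log2 fold change of maternal deletion over wild type for the 47 members tested (points, with SE bars), grouped and coloured by role; filled points passed the adjusted p of 0.05. H3 lysine 4 methyltransferases lie above 0, the 4 PRC2 subunits lie near 0, and 4 JmjC demethylases are filled on the left against Kdm6b on the right.

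Of the H3 lysine 4 methyltransferases, 2 of 5 tested rose and 0 fell, beside 30.3% and 26.4% of all genes tested. Their median log2 fold change was 0.91. Setd1b, which trimethylates promoters, was at 0 in the lowest wild-type library, 5.95 CPM in the median and 34.5 in the highest, and at 0, 28.8 and 88.1 in deletion embryos. Its log2 fold change was 1.72 ± 0.49 (SE; adjusted p = 0.00266), with 26 of 28 deletion libraries above the wild-type median, though the ranges overlapped. Setd1b was at or under 3 counts in 10 of 22 wild-type and 3 of 28 deletion libraries. Wild-type libraries also had a lower median total (545264.5 against 1618485.5 counts). Mll2, an enhancer enzyme, rose by 0.91 ± 0.28 from a median of 532 to 1057 CPM. Mll3 (0.36 ± 0.19), Setd1a (0.39 ± 0.33) and Mll5 (0.94 ± 0.56) did not pass, Mll3 passing with the replicate number as a block (0.39, adjusted p = 0.0457), although its direction was not the same in both replicates. Mll1 did not pass the filter on low counts over both replicates. It was above 3 counts in 6 of 22 wild-type and 17 of 28 deletion libraries. Within replicate 2 it was tested and was higher, at 2.54 ± 0.95 (edgeR, adjusted p = 0.0315), beside 3879 of 9730 genes called there.

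Of the H3 lysine 9 methyltransferases, 1 of 5 tested rose and 2 fell, beside 30.3% and 26.4% of all genes tested. The pair of Suv39h enzymes, which trimethylate pericentric heterochromatin, moved in opposite directions. Suv39h2 was 16.1, 96.1 and 199.9 CPM in the lowest, median and highest wild-type library and 85.2, 244 and 536 in deletion embryos. It rose by 1.45 ± 0.25 (adjusted p = 3.54e-06), and 27 of 28 deletion libraries lay above the wild-type median. Its exons overlap Dclre1c, so some reads could belong to either gene. Suv39h1, on the X chromosome, had a log2 fold change of -1.002 ± 0.39, from a median of 57.4 to 25.5 CPM (adjusted p = 0.0255). Setdb2 fell by 0.66 ± 0.28. Setdb1, which silences retrotransposons, had medians of 62.7 and 47.5 CPM and a log2 fold change of -0.01 ± 0.33, and Ehmt1 one of -0.72 ± 0.49. Ehmt2, the partner of Ehmt1 in H3 lysine 9 dimethylation, was too low to test, with medians of 3.66 and 1.21 CPM.

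By edgeR 0 of the 4 PRC2 core genes were called in this comparison, 0 were at an unadjusted p under 0.05, and 0 were called by DESeq2. Over all 8518 genes tested these counts were 4825, 5242 and 5262. Suz12 was 423, 773 and 1921 CPM in the lowest, median and highest wild-type library and 161, 491 and 1557 in deletion embryos, a log2 fold change of -0.26 ± 0.23 (adjusted p = 0.333). Ezh2 had medians of 394 and 340.4 CPM (0.18 ± 0.24), Ezh1 75.2 and 76.0 (0.15 ± 0.32) and Eed 133 and 120.4 (0.31 ± 0.32). With total counts alone Ezh1 and Ezh2 turned to -0.12 and -0.13, and Suz12 passed at -0.52.

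The enzymes of H3 lysines 36 and 79 split. Setd2 (chromosome 9, 110532597 to 110618633 on GRCm38, plus strand) was 119, 483 and 935 CPM in the lowest, median and highest wild-type library and 0.639, 95.3 and 385 in deletion embryos, where no library reached the wild-type median. It fell by 1.85 ± 0.28 (adjusted p = 4.89e-07). Whsc1, which dimethylates H3 lysine 36, rose by 1.12 ± 0.23 from a median of 68.3 to 136 CPM, with 27 of 28 deletion libraries above the wild-type median. Its exons overlap Nelfa. Dot1l, the H3 lysine 79 enzyme, rose by 0.70 ± 0.22 (181 to 286), and Whsc1l1 (0.59 ± 0.30) did not pass. Nsd1, another H3 lysine 36 enzyme, was at 0.12 ± 0.21 over both replicates, but it passed in opposite directions within them, lower in replicate 1 (-0.71 ± 0.22, adjusted p = 0.0105) and higher in replicate 2 (0.78 ± 0.29, adjusted p = 0.032). Of the H4 lysine 20 enzymes, Suv420h1, which adds the second and further methyl groups, fell by 1.78 ± 0.41 from a median of 85.3 to 20.1 CPM, while Setd8, which adds the first, was at 94.2 and 92.4 (0.18 ± 0.21). Suv420h2 was not tested.

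For 4 of the called members, with both directions shown, the 250 bases before the RefSeq start site hold no exon of the GENCODE annotation, and they are printed to show how differently built the promoters of these genes are. They are from RefSeq on GRCm38.p6, 5′ to 3′ on the gene's strand. Mll2 lies at chr15:98871206-98871455 on the minus strand and rose. Dot1l lies at chr10:80754953-80755202 on the plus strand and rose. Setd2 lies at chr9:110532347-110532596 on the plus strand and fell. Kdm4c lies at chr4:74242247-74242496 on the plus strand and fell. Capitals mark every match, on either strand, to GGGCGG (the GC box), CCAAT (the CCAAT box), AGGTCA (a nuclear receptor core) or TAATCC (the core bound by Obox-type homeodomains).
Mll2: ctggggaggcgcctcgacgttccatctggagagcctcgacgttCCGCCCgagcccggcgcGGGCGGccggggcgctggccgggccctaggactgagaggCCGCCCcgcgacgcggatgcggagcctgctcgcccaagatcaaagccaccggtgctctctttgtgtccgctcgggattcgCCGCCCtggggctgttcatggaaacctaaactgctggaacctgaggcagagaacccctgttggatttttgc
Dot1l: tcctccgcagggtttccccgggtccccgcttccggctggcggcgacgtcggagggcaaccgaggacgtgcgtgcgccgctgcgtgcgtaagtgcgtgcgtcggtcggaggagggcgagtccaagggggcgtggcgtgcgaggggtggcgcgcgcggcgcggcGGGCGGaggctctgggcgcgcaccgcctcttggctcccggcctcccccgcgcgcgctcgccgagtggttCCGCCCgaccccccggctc
Setd2: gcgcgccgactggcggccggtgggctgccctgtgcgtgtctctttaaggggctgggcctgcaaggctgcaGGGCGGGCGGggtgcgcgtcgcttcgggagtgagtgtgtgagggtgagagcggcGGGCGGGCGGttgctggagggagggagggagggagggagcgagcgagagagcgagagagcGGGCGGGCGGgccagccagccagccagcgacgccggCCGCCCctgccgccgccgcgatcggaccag
Kdm4c: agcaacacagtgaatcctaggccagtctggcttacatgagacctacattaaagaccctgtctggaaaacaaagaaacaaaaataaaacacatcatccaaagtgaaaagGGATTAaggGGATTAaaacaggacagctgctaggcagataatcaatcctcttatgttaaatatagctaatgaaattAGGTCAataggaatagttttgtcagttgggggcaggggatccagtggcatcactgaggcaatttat

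Setd2 held 7 matches to GGGCGG, some of them overlapping, Mll2 4 and Dot1l 2, and Kdm4c held none but 1 match to AGGTCA and 2 to TAATCC. The CG dinucleotide occurred 44 times in the Dot1l stretch, 31 times in Setd2, 26 in Mll2 and 0 in Kdm4c. Of the 47 members matched by symbol in the promoter table, 27 (57.4%) held GGGCGG and 21 (44.7%) CCAAT, against 32.9% and 34.5% of all 27025 promoters of the same length. AGGTCA was in 4 members and TAATCC in 2, against 13.8% and 6.38% of all promoters. The members' promoters were also richer in G and C (median 59.6% against 52.0%) and in CG dinucleotides (17 against 6). The part of base composition in these shares was not tested. Among members with an entry, GGGCGG was in 6 of 6 that rose and 5 of 10 that fell, a description of these stretches only. The median share of G and C was 69.4% in those that rose and 54.6% in those that fell.

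Of the other SET domain enzymes, 2 of 6 tested rose and 0 fell, beside 30.3% and 26.4% of all genes tested. Setd6, which methylates proteins other than histones, was 0, 5.3 and 25.1 CPM in the lowest, median and highest wild-type library and 0, 24.1 and 153 in deletion embryos. It rose by 2.54 ± 0.58 (adjusted p = 0.00027), with 26 of 28 deletion libraries above the wild-type median. Smyd4 had medians of 0.465 and 19.2 CPM and highest values of 32.6 and 78.4, a rise of 2.51 ± 0.70 (adjusted p = 0.00236). Both were at or under 3 counts in 13 of 22 wild-type libraries, whose median total of 545264.5 counts was below the 1618485.5 of deletion libraries. Smyd3 (-1.22 ± 0.56) did not pass. Smyd5 was not tested because of low counts, with medians of 41.8 CPM in wild type and 0 in deletion embryos, where 23 of 28 libraries had 3 counts or fewer.

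The protein arginine methyltransferases had the lowest median log2 fold change of the groups, -1.36. Of 7 tested, 3 were lower and 0 higher, beside 26.4% and 30.3% of all genes tested. Prmt1, the main enzyme of asymmetric arginine dimethylation, was 0, 54.7 and 381 CPM in the lowest, median and highest wild-type library and 0, 3.69 and 213 in deletion embryos. It fell by 2.23 ± 0.64 (adjusted p = 0.00275), and only 1 deletion library lay above the wild-type median, namely A04, at 213 CPM. Prmt6, which methylates H3 arginine 2, fell by 1.55 ± 0.54 (49.5 to 7.88 CPM), and Prmt5 by 1.36 ± 0.55 (117 to 8.79). Prmt7 (-1.38 ± 0.63), Prmt3 (-0.93 ± 0.52), Prmt2 (1.13 ± 0.53) and Carm1, an arginine methyltransferase that acts as a coactivator (medians 13.7 and 16.4 CPM, 0.86 ± 0.53), did not pass.

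The demethylases held the steepest falls. Kdm4c (chromosome 4, 74242497 to 74405860, plus strand) was 17.8, 105 and 205 CPM in the lowest, median and highest wild-type library and 0, 3.44 and 79.8 in deletion embryos. It fell by 2.53 ± 0.58 (adjusted p = 0.000265), no deletion library reached the wild-type median, and 13 of 28 had 3 counts or fewer. Kdm5b (chromosome 1, 134560171 to 134632877, plus strand) was 211, 661 and 1670.1 CPM in wild type and 0, 85.2 and 896 in deletion embryos, a fall of 2.34 ± 0.41 (adjusted p = 5.53e-06). The deletion library at 896 was A04, the only one above the wild-type median. Kdm5a, the close relative of Kdm5b, fell by 1.37 ± 0.42 (199.9 to 52.5 CPM) and Kdm4a by 1.36 ± 0.46 (27.5 to 13.3). Kdm6b (chromosome 11, 69398508 to 69413675 on GRCm38, minus strand) was 7.72, 55.7 and 187 CPM in wild type and 21.3, 270.4 and 608 in deletion embryos, where 27 of 28 libraries lay above the wild-type median. Its rise of 2.20 ± 0.29 (adjusted p = 2.46e-08) had the smallest p-value of the members. Both replicates showed it, at 1.97 ± 0.41 and 2.43 ± 0.40. The wild-type libraries nearest to the deletion level were G05 and H05, at 175 and 187 CPM. Kdm6a, which removes the same mark and lies on the X chromosome, had medians of 156 and 191 CPM (0.33 ± 0.34). Of the flavin-dependent demethylases, Kdm1b was 0, 59.9 and 246 CPM in wild type and 11.7, 166 and 698 in deletion embryos, a rise of 1.66 ± 0.40 (adjusted p = 0.000522), lowest again in A04. Kdm1a, the demethylase needed past the 2-cell stage, had medians of 21.9 and 10.4 CPM and a log2 fold change of -0.89 ± 0.44 (adjusted p = 0.0768), and it passed under 4 of 8 alternatives.

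**Figure D3:**
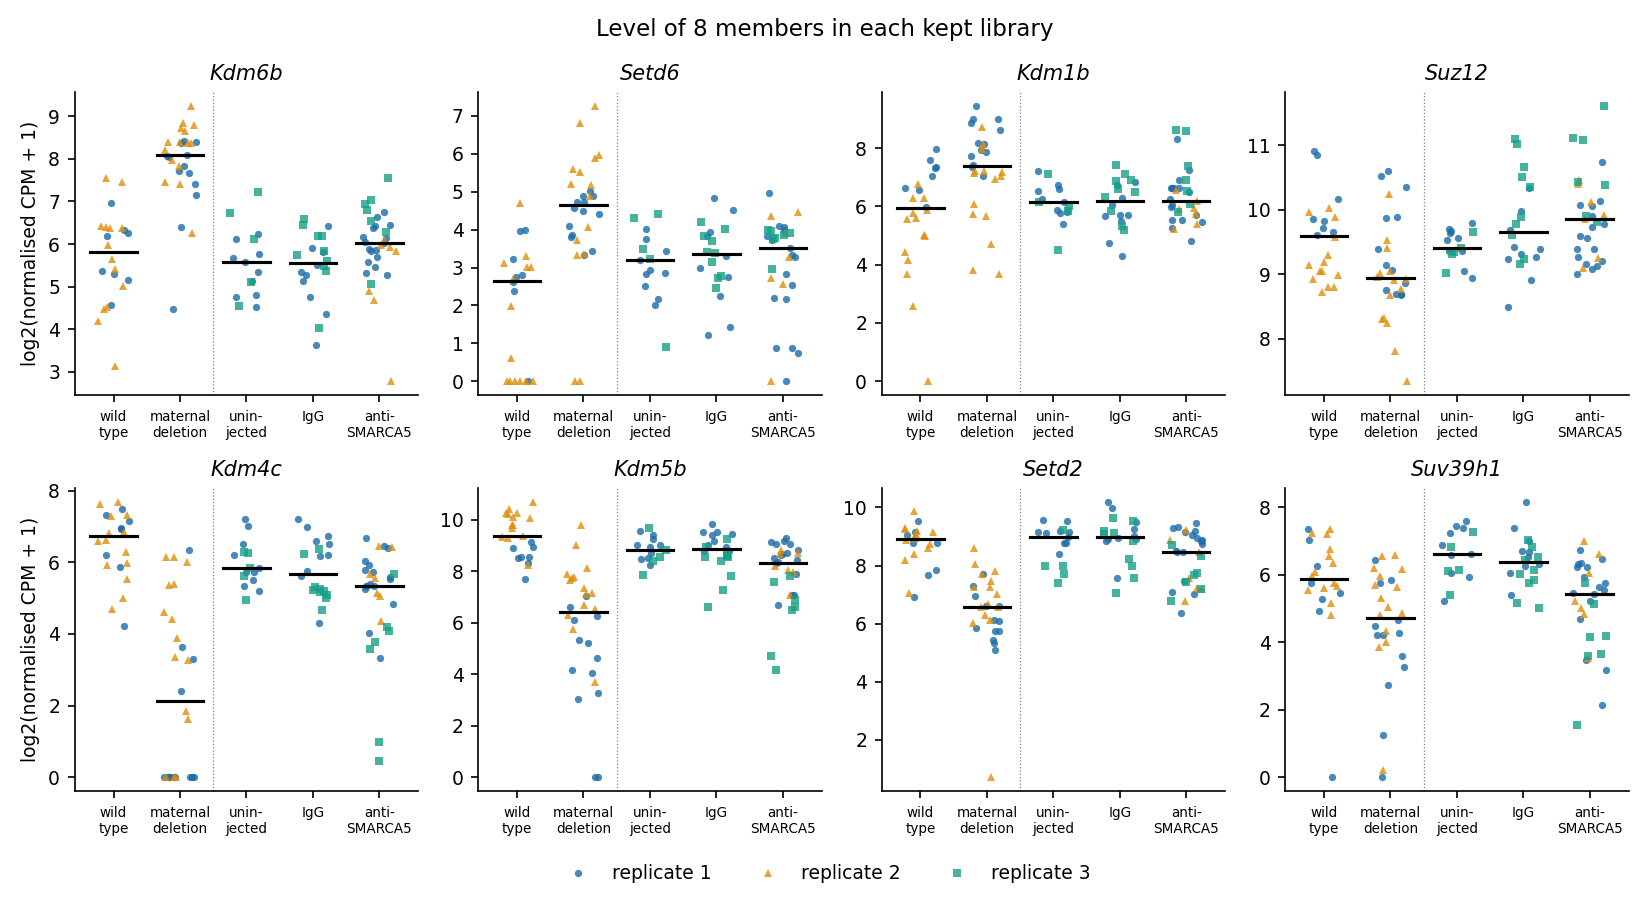
log2 of normalised CPM plus 1 of 8 members in each of the 116 libraries (points, shaped by replicate; bars, group medians); the dotted line parts the experiments, which were scaled separately. Deletion embryos are high for Kdm6b, Setd6 and Kdm1b and low for Kdm4c, Kdm5b, Setd2 and Suv39h1, and the anti-SMARCA5 medians of Kdm5b, Setd2, Kdm4c and Suv39h1 lie below those of IgG.

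The effect of deletion was also compared between replicate 2 and replicate 1, which lie on separate lanes. By edgeR 0 of 47 members differed, beside 0.763% of all genes (0.634% higher, 0.129% lower). At an unadjusted p under 0.05 were 6 members, beside 1366 of 8518 genes. DESeq2 called 3 members (Nsd1, Ehmt1 and Kdm2b), beside 318 of 8518 genes. The lowest adjusted p was that of Nsd1, whose log2 fold change was 1.36 ± 0.38 higher in replicate 2 (adjusted p = 0.0586). Without the libraries A04, G05 and H05, 6 members differed: Mll2, Mll3, Nsd1 and Setd3 higher in replicate 2, Ehmt1 and Kdm2b lower. In that fit 1060 of 8380 genes differed, 890 higher and 170 lower.

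Setting anti-SMARCA5 beside IgG embryos asks what degrading the protein in the zygote does in wild-type embryos. In replicate 1 the groups differ in Trim21 as well, at 0 in all 10 IgG libraries and 302 to 6997 CPM in anti-SMARCA5 embryos. In that replicate an effect of the antibody and one of Trim21 cannot be told apart. Without regard to the pool, 1 of 52 members tested was called, beside 3.03% of all 10447 genes tested (1.73% higher, 1.3% lower), and 15 members were at an unadjusted p under 0.05. The called member was Suv39h1. It was 31.4, 82.8 and 287 CPM in the lowest, median and highest IgG library and 1.94, 42.6 and 126 in anti-SMARCA5 embryos, and 4 of 31 lay above the IgG median. It fell by 0.99 ± 0.29 (edgeR, adjusted p = 0.0439), and over the alternatives the adjusted p ran from 0.002 to 0.394. Replicate numbers mark pools, and same-numbered pools of these groups deviated together (correlations of 0.67 and 0.58). The fit with the replicate as a block therefore bears on this count. In it 16 of 52 members were called, 5 higher and 11 lower, beside 25.8% of all genes tested (12.1% higher, 13.6% lower). All 16 had the same direction within replicate 1 and within replicate 3. The same libraries gave the calls, so this agreement is no separate support. Without the block and with replicate 1 left out, edgeR called 0 members (2 at an unadjusted p under 0.05), beside 0 of 9402 genes (1210 unadjusted). With total counts alone it called 0 members (9 unadjusted), beside 64 of 10447 genes (2180 unadjusted). It called 3 members each without replicate 2, replicate 3 or the library C02, beside 591 of 10100, 417 of 11044 and 521 of 10381 genes. DESeq2 called 5, beside 999 of 10447 genes.

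Of the members that rose with the block, Kdm6b was 11.3, 45.9 and 94.8 CPM in the lowest, median and highest IgG library and 5.83, 64.3 and 187 in anti-SMARCA5 embryos. Its log2 fold change was 0.86 ± 0.23 (adjusted p = 0.00789; 0.59 ± 0.24 and 0.114 without the block), with 24 of 31 libraries above the IgG median. Kdm1b rose by 0.77 ± 0.26 (adjusted p = 0.0234), although the overall medians of 71.4 and 71.1 CPM were alike. Within replicates its medians were 50.9 and 75.4 in replicate 1 and 92.8 and 118 in replicate 3. Whsc1 rose by 0.60 ± 0.20 (46.8, 87.2 and 132 CPM in IgG and 60.0, 119.9 and 285 in anti-SMARCA5 embryos), Dot1l by 0.58 ± 0.18 (medians 168 and 176) and Setd3, a histidine methyltransferase of actin, by 0.50 ± 0.18.

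Of the members that fell with the block, Smyd5 changed most. It was 0, 30.7 and 132 CPM in the lowest, median and highest IgG library and 0, 6.72 and 56.3 in anti-SMARCA5 embryos, a fall of 1.98 ± 0.52 (adjusted p = 0.00688; 0.0526 without the block). Prmt6 was 15.98, 80.8 and 218 CPM in IgG and 0.695, 46.7 and 171 in anti-SMARCA5 embryos and fell by 1.48 ± 0.31. Kdm3b, a demethylase of H3 lysine 9, was 0, 22.0 and 69.8 CPM in IgG and 3.38, 11.5 and 23.4 in anti-SMARCA5 embryos and fell by 1.33 ± 0.32, with 4 of 31 libraries above the IgG median. Suv39h1 fell by 1.35 ± 0.30 in this fit. Kdm5b fell by 1.03 ± 0.23 (97.0, 467 and 912 CPM in IgG, 16.9, 317 and 626 in anti-SMARCA5 embryos). Its fall was 0.68 ± 0.24 in replicate 1 and 1.56 ± 0.46 in replicate 3. In replicate 3 the summed 2-cell transcripts were also lower, at a median of 552 CPM in anti-SMARCA5 against 2619 in IgG embryos, while in replicate 1 they were 3830.0 against 2711. The part of this in the falls was not tested. Kdm4c fell by 0.96 ± 0.29, Ehmt1 by 0.87 ± 0.31, Suv420h1 by 0.80 ± 0.29, Kdm5a by 0.75 ± 0.23, Setd2 by 0.68 ± 0.23 (medians 507 and 351 CPM) and Kdm1a by 0.68 ± 0.26 (27.2 and 18.6 CPM). Of the PRC2 core 0 of 4 were called by edgeR, beside 25.8% of all genes with the block and 3.03% without it. DESeq2 called 0 of them, beside 999 of 10447 genes. The lowest unadjusted p of the 4 in the blocked fit was that of Suz12, 0.0479, with Suz12 at 0.37 ± 0.18 (medians 803 and 925 CPM) and Ezh2 at 0.19 ± 0.16 (320.2 and 285). Setdb1 was at -0.39 ± 0.21 and Carm1 at 0.10 ± 0.36. Prmt1, which fell in deletion embryos, was at -0.76 ± 0.47 and did not pass, and Ehmt2 was not tested, with medians of 6.34 and 3.59 CPM.

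Beside uninjected embryos, the same anti-SMARCA5 libraries gave 12 calls of 53 members tested, 8 higher and 4 lower, against 27.9% of all 10750 genes (17.5% higher, 10.4% lower). With the replicate block there were 19, 11 higher and 8 lower, against 31.9% of genes (17.2% and 14.6%). This comparison shares its treated libraries with the one above and is no second support. The lower members were Smyd5 (-2.22), Kdm3b (-1.27), Suv39h1 (-1.16) and Ehmt1 (-1.03). The higher ones were Mll5 (1.51), Kdm6a (0.98), Suv39h2 (0.89), Whsc1 (0.83), Setd1b (0.77), Suz12 (0.72), Mll3 (0.65) and Nsd1 (0.49). All 8 higher calls were lost with total counts alone, which gave 0 higher and 15 lower members, beside 409 higher and 1874 lower of 10750 genes. It moved the median of all genes from 0.13 to -0.29, so these rises are relative to the scaling. The 4 lower ones were called under it too. Without replicate 1, edgeR called 0 members, with 9 at an unadjusted p under 0.05, beside 1 of 10544 genes (2261 unadjusted). Without replicate 3 it called 7, beside 2002 of 11142 genes.

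Setting IgG beside uninjected embryos asks about the background of injection. Trim21 was at 0 in all 10 IgG libraries of replicate 1 and above 3 counts in 8 of 10 of replicate 3, so this group is mixed. By edgeR 0 of 53 members and 0.0% of genes were called, with 7 members at an unadjusted p under 0.05 and 1, Kdm6a, called higher by DESeq2. Over all 9915 genes, 1440 were at an unadjusted p under 0.05 and DESeq2 called 206. Kdm6a was also the member with the largest log2 difference, 0.99 ± 0.32 (adjusted p = 0.164; medians 115 and 158 CPM), beside a range over members from -0.60. Suv39h2 was at 0.73 ± 0.25 and Suz12 at 0.53 ± 0.21, neither passing the test. Within replicates the values were larger in replicate 3 (1.61 ± 0.45 for Suv39h2 and 0.92 ± 0.38 for Suz12) than in replicate 1 (0.03 ± 0.23 and 0.05 ± 0.20). Neither this contrast nor the part of Trim21 in it was tested. Mll5 had medians of 15.8, 20.1 and 38.6 CPM in uninjected, IgG and anti-SMARCA5 embryos.

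The experiments share no libraries, so their effects on the members can be set side by side. All 20 members called after deletion had the same sign in the anti-SMARCA5 against IgG comparison, as did 93.4% of all genes called after deletion. All 20 changed less there, as did 99.6% of the genes with the same sign, though Suv39h1 was nearly equal (-1.002 and -0.995). The genes were picked by their calls after deletion, which favours larger effects there. The smaller effects in the other comparison are therefore no separate result. Across the 47 members tested in both, the effects correlated with Pearson's r = 0.77, beside 0.76 across all 8238 genes, and genes are not independent replicates. With the replicate block all 20 again had the same sign, beside 95.0% of genes. Of these, 19 members and 97.6% of genes changed less. With that block, 11 members (23.4% of 47) were called in both and in the same direction, beside 23.6% of all genes called in both: Kdm6b, Kdm1b, Whsc1 and Dot1l higher, Kdm5b, Kdm5a, Kdm4c, Setd2, Suv420h1, Suv39h1 and Prmt6 lower. The members' correlation and share of same signs were close to those of all genes.

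**Figure D4:**
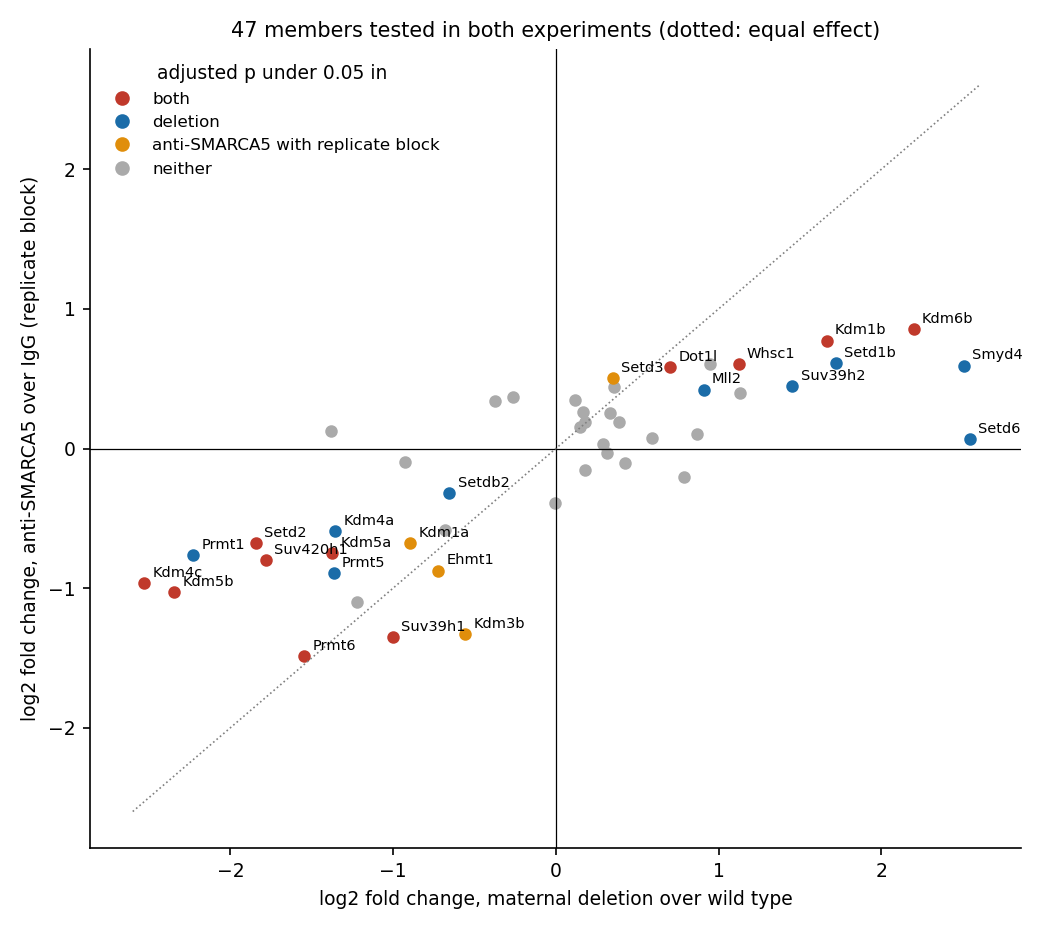
log2 fold change of the 47 members tested in both experiments, maternal deletion over wild type (horizontal) against anti-SMARCA5 over IgG with the replicate block (vertical), coloured by where the adjusted p was under 0.05; the dotted line marks equal effects. All 20 members called after deletion lie in the lower left or upper right, 19 of them closer to 0 on the vertical axis, and Setd6 lies near 0 there.

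The difference between the effects was tested in a fit of all 4 groups. It was called for 9 of 54 members, 4 higher and 5 lower, beside 19.2% of 12035 genes (10.5% and 8.73%). With the replicate block it was called for 7, 3 higher and 4 lower, beside 11.7% (7.99% and 3.68%). The experiments were sequenced separately, and this cannot be told apart from a difference between their effects. The effect of deletion was more negative for Kdm4c (by 2.04 ± 0.65), Kdm5b (1.77 ± 0.49), Suv420h1 (1.46 ± 0.50), Setd2 (1.30 ± 0.36) and Prmt10. It was more positive for Suv39h2 (by 1.21 ± 0.33), Kdm6b (1.54 ± 0.36), Smyd4 (2.05 ± 0.77) and Setd6 (2.43 ± 0.67). Prmt10 was above 3 counts in 5 of 22 wild-type and 3 of 28 deletion libraries, so its difference rests on few counts. Kdm6b was called under all 12 alternatives. Without 1 replicate 3 to 7 members were called, beside 1113 of 12192 genes and 1850 of 12416. Without the libraries A04, G05 and H05 16 were, beside 3421 of 11962 genes.

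Lists of genes that work with the members were followed in deletion embryos. Of the complex partners, 27 of 32 were tested, 7 rose and 7 fell (51.9% called, beside 56.6% of all genes, 30.3% higher and 26.4% lower). The largest rises were 2410022L05Rik (Coprs, a partner of Prmt5), at 2.38 ± 0.59, and Paxip1, a subunit of the Mll2 and Mll3 complexes, at 1.12 ± 0.37. The largest falls were Clns1a, a substrate adaptor of Prmt5, at -2.57 ± 0.44, and Mtf2, which brings PRC2 to CpG islands, at -2.20 ± 0.27. Wdr77, the obligate partner of Prmt5, fell too, at -1.23 ± 0.45. Of the methyltransferases and JmjC proteins with other names, 16 of 28 were tested, 2 rose and 6 fell (8 of 16 called), led by Mina (Riox2), a histidine hydroxylase, at -3.67 ± 0.65 and N6amt2 (Eef1akmt1), which methylates a translation factor, at -2.89 ± 0.73. Of the enzymes that supply methyl groups, 10 of 17 were tested, 2 rose and 4 fell (60.0%). Mtrr, which reactivates methionine synthase, was at -3.54 ± 0.72 and Mat2a, which makes the methyl donor S-adenosylmethionine, at -2.61 ± 0.46, while Shmt2 was at 1.75 ± 0.46 and Mthfd2 at 0.92 ± 0.32, both of mitochondrial folate metabolism. The medians of the lists were 0.09, -0.57 and -0.12 on the log2 scale, beside 0.18 over all genes.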

How the data were processed

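Polyadenylated RNA of single wells was sequenced by the RNA part of the scNMT-seq protocol with Nextera XT libraries, per the labels' protocols. The authors deposited 2 tables of raw read counts per gene, 1 for each experiment, on GRCm38 with ERCC sequences, per the file headers. HISAT2 2.1.0, Trim Galore 0.6.5 and cutadapt 2.3 are named in the submitters' processing notes. The gene annotation release, strand, duplicate and multi-mapping settings are not given in the sources used here. In the libraries used, a count of 3 stood in 84269 places and a count of 4 in 23199; the cause was not tested.

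Lines of the 57 gene identifiers listed more than once were summed. Libraries under 100000 counts were left out (19 of 135 embryo libraries), as were 3 wells without an embryo. Counts were fitted with edgeR 4.0.16 (TMM scaling, filterByExpr by group, robust quasi-likelihood F test; R 4.3.3) within 1 table, or over 4 groups for the difference of effects, with Benjamini-Hochberg adjustment over all genes tested. SE was the size of the log2 fold change divided by the square root of F. Normalised CPM used TMM factors over the libraries of a table. Alternatives were other scalings, no filter, DESeq2 1.42.0, the replicate number as a block, a minimum of 500000 counts and libraries left out. Leaving out A04, G05 and H05, leaving out C02, and the block without anti-SMARCA5 pool 2 were chosen after seeing the data. The fits without the block were also run on simulated counts that held no differences between pools, with no outcome given here. Those runs do not bear on pool effects. Same-numbered libraries of a group share a pool, and a number does not make pools of different groups the same. Deviations of same-numbered pools from their group means correlated across genes at 0.52 for deletion and wild type. The values were 0.67 and 0.58 for anti-SMARCA5 and IgG, 0.16 and 0.06 for anti-SMARCA5 and uninjected, and 0.43 for IgG and uninjected.

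The members and lists were chosen with earlier results of these data known. Called members were named, with group values for up to 4 rises and 4 falls per comparison at an average log2 CPM of at least 4, the PRC2 core and Kdm5b, Kdm1a, Carm1, Prmt1, Setdb1 and Ehmt2; of each further list, up to 2 rises and 2 falls. Wdr77, Mll2, Suv39h2, Mll5 and Kdm6a were given values after these were seen. Exon lengths and overlaps came from GENCODE vM21, in which 58 members have a length (not Prmt1). Exons of Setdb1, Mll5, Kdm2b, Kdm5a, Prmt7, Carm1, Kdm6b, Suv420h1 and Suv39h1 also overlap another listed gene, so their counts are uncertain. Kmt2b, Kdm7a and Kdm8 are in the tables under names that the pattern does not match.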

Additional observations from a re-analysis of the deposited data

Results flagged for a closer look

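Maternal deletion and anti-SMARCA5 (against IgG) differed in effect for 9 members (log2, edgeR with Benjamini-Hochberg adjustment over all genes). Lower after deletion were Prmt10 at -4.12 (adjusted p = 0.00386), Kdm4c at -2.04 (0.0179), Kdm5b at -1.77 (0.00642), Suv420h1 at -1.46 (0.0285) and Setd2 at -1.30 (0.00718). Higher after deletion were Suv39h2 at 1.21 (0.00538), Kdm6b at 1.54 (0.00137), Smyd4 at 2.05 (0.0481) and Setd6 at 2.43 (0.00622). These are 9 of 54 members tested, beside 19.2% of all genes. Of the embryo libraries left out for low totals, 12 held more counts in the members (23 to 711) than any well without an embryo (2 to 17). Every group held more than 10 libraries, so single libraries were not tested as outliers.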

How the results depend on the processing

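The count of members called after deletion stayed within 1.5 times of 20 under every alternative (15 to 27). The lowest was 15 of 40 members without replicate 2, beside 2801 of 6389 genes. The highest was 27 of 58 without a filter, beside 10416 of 20995 genes. The replicate block gave 21 of 47 (4907 of 8518 genes). For anti-SMARCA5 against IgG, 1 member was called, beside 317 of 10447 genes. Calls were 0 with total counts alone (64 of 10447 genes) or a minimum of 500000 counts (150 of 10498). They were 5 without a filter (3010 of 22374) or with DESeq2 (999 of 10447). The replicate block gave 16 (2691 of 10447), and leaving out 1 replicate gave 0 to 3 (0 to 591 genes). Chosen after seeing the data, leaving out library C02 gave 3 (521 of 10381 genes), and the block without anti-SMARCA5 pool 2 gave 17 (2835 of 10100 genes). For anti-SMARCA5 against uninjected, 12 became 19 with the block (3426 of 10750 genes) and 20 with the block without pool 2 (3607 of 10283). Leaving out 1 replicate gave 0 to 13 (1 to 2921 genes). For IgG against uninjected, 0 became 1 without a filter (Smyd1, beside 881 of 20956 genes) or with DESeq2 (Kdm6a, beside 206 of 9915). For the deletion effect between replicates, 0 became 1 without a filter, 3 with DESeq2 and 6 without A04, G05 and H05, also chosen after seeing the data. Over all genes these settings called 678 of 20995, 318 of 8518 and 1060 of 8380. For the difference of effects, 9 became 3 to 7 leaving out 1 replicate (1113 to 1850 genes) and 16 without those 3 libraries (3421 of 11962). The block gave 7 (1404 of 12035). The block changed no other count by more than 1.5 times. Ezh1 turned from 0.15 to -0.12 with total counts alone, -0.0018 without a filter and -0.0027 with DESeq2. Ezh2 turned from 0.18 to -0.13 with total counts alone and -0.027 without replicate 1 (0.23 without replicate 2). Setdb1 turned from -0.01 to 0.37 without replicate 1 (-0.42 without replicate 2) and 0.0076 without those 3 libraries. Nsd1 turned from 0.12 to -0.12 with total counts alone, -0.0027 without a filter and -0.71 without replicate 2 (0.78 without replicate 1). Setd8 turned from 0.18 to -0.056 with total counts alone and -0.071 without replicate 2 (0.46 without replicate 1). Without replicate 2, Ehmt1 turned from -0.72 to 1.09 (-1.30 without replicate 1), Mll3 from 0.36 to -0.20 (0.90) and Kdm6a from 0.33 to -0.0098 (0.62). Of the values of members named after deletion, 15 reversed in this way, 16 lost and 23 gained the call, and 291 kept direction and side of the threshold. For anti-SMARCA5 against IgG, Carm1 turned from -0.01 to 0.10 with the replicate block, 0.13 with a minimum of 500000 counts, 0.017 without C02, 0.11 with the block without pool 2, and ran from -0.36 to 0.24 leaving out 1 replicate. Ezh2 turned from 0.10 to -0.11 with total counts alone. The causes were not tested. Setd6 and Smyd4 were at or under 3 counts in 13 of 22 wild-type libraries, Prmt10 in 17 and Setd1b in 10, where values have low precision.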
